A study of Homo sapiens with 12 samples.

Results

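The genes described here are 38 genes of epithelial cell junctions, keratins and the mesenchymal state, out of 56508 gene symbols measured in 2 established human lines of small cell lung cancer, H82 and H211. They were taken by symbol from a fixed list, with no cut on their values. The list was chosen with earlier results of these data known. The epithelial set holds 28 genes: surface adhesion proteins and cadherins, tight junction and desmosome proteins, keratins, transcription and splicing factors, and membrane proteases with their inhibitors. The mesenchymal set holds 10 genes: VIM, FN1, CDH2, SPARC and the factors ZEB1, ZEB2, SNAI1, SNAI2, TWIST1 and TWIST2. Of the 38, 35 reached a level of 1 in at least 3 libraries and were tested, 26 epithelial and 9 mesenchymal. TJP3, KRT7 and TWIST2 did not: KRT7 stayed at or below 0.341 and TWIST2 at or below 0.0854 in every library, and TJP3 reached 1.43 in a single H82 library.

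Messenger RNA was sequenced from both lines, whose genotype is labelled WT, after culture with ORY-1001 at 1 µM or with vehicle, given as PBS. ORY-1001 inhibits LSD1, a histone demethylase encoded by KDM1A, and the study asked how loss of LSD1 activity affects gene expression in these lines. Each of the 4 groups (H82 control, H82 ORY-1001, H211 control, H211 ORY-1001) held 3 libraries; the labels give 7 days of treatment in the sample fields and 10 days in the protocol, and do not say whether replicates are separate cultures. The p-values here thus cover the spread among these samples alone, and that spread may be technical. Levels are rescaled TPM, a share of a library's transcripts that takes account of transcript length, so they can be compared between genes; read counts were not analysed here, the depth is unknown, and no counting interval can be given.

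Epithelial cells hold to each other through E-cadherin, tight junctions and desmosomes, and carry a cytoskeleton of paired keratins. Mesenchymal cells instead use vimentin filaments, N-cadherin and a fibronectin matrix. ZEB, SNAI and TWIST factors repress epithelial genes such as CDH1, while GRHL, OVOL and ELF3 factors and the ESRP splicing regulators maintain them, and microRNAs of the miR-200 family and the ZEB factors repress each other. Small cell lung cancer lines usually grow as floating clusters and differ in how far they keep these epithelial programs.

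The labelled identities were checked first. NEUROD1, the neuronal factor that marks one class of small cell lung cancer lines, lay at 123 to 139 in H82 libraries and at 1.40 to 2.10 in H211 libraries, and POU2F3, the tuft cell factor that marks another, at 1.27 to 2.72 and 246 to 285. Transcripts of blood cells differed between libraries: the summed level of 17 blood cell markers, 11 of them tested, was 136.6 and 272.7 in H211 control replicates 1 and 2, 142.8 in H82 ORY-1001 replicate 3, and 35.9 to 55.9 in the other libraries. H211 control replicate 2 held the neutrophil gene S100A8 at 58.1 and LYZ at 23.0, and LYZ was also at 16.0 to 18.7 in H211 ORY-1001 replicate 3 and H82 ORY-1001 replicates 1 and 2; S100A8 was at most 0.694 in each of the other libraries. Of the 11 tested, 2 (MPO and PRTN3) rose with ORY-1001 in H82, near the 19.1% of all genes called higher there; in H211 limma called 0, and 0 had an unadjusted p under 0.05. The summed level of 5 endothelial markers was at most 1.495, and none of them reached the level tested. The sum hides which blood transcripts were present. The globin gene HBG2 was at 23.9, 28.15 and 22.4 in H82 controls and at 0, 0.120 and 53.0 with ORY-1001. MPO was at 0.0849 or lower in H82 controls and at 8.71, 8.55 and 24.3 with ORY-1001. In H82, MPO transcripts thus went with treatment and cannot be told apart from it. The part of blood transcripts in the results below was not tested. A fit without 4 libraries (H82 ORY-1001 replicate 3, H211 control replicates 1 and 2, H211 ORY-1001 replicate 3) was also made. The 4 were taken from an earlier analysis of these data and do not follow from the marker sum: H211 ORY-1001 replicate 3 had a sum of 39.0, and H82 ORY-1001 replicates 1 and 2, which carried LYZ and MPO at similar levels to it, were kept.

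**Figure D1:**
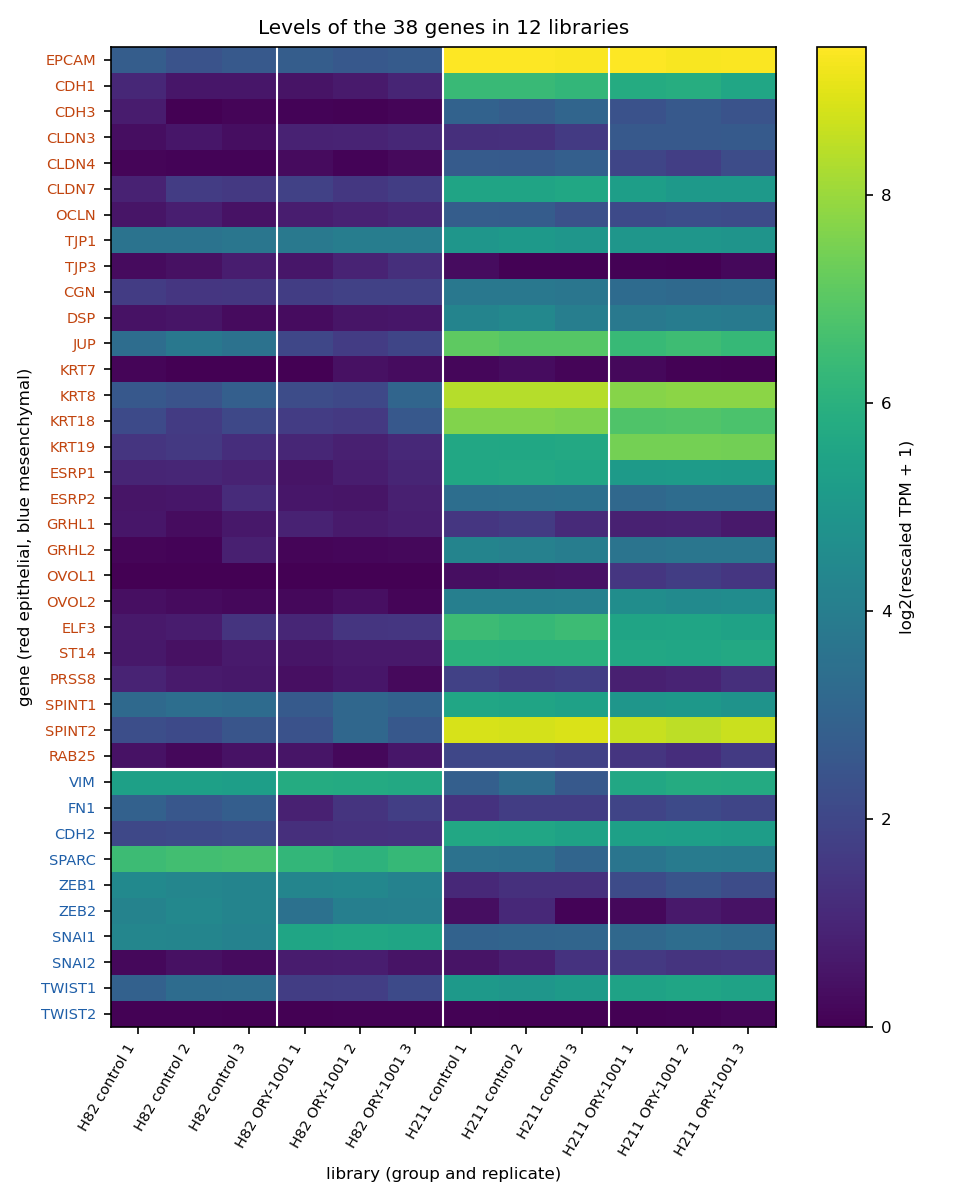
Heat map of log2(rescaled TPM + 1) for the 38 genes (vertical axis, red names epithelial, blue names mesenchymal) in the 12 libraries (horizontal axis, group and replicate). The H211 libraries are bright over most epithelial genes and the H82 libraries dark, while VIM, SPARC, ZEB1, ZEB2 and SNAI1 are brighter in H82.

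H211 controls carried the epithelial program and H82 controls carried it at low or trace levels. EPCAM, the surface adhesion molecule used to recognise epithelial cells, averaged 671 ± 16.7 in H211 and 5.17 ± 0.759 in H82 (mean ± SD, n = 3), a 129.7-fold difference. The mesenchymal genes were split: ZEB2, ZEB1, SPARC, VIM, FN1 and SNAI1 were higher in H82, by 2.54-fold to 37.9-fold, and CDH2, TWIST1 and SNAI2 were higher in H211. In these bulk samples fewer cells of a type and less RNA per cell cannot be told apart. All tests are from 1 limma fit to the 12 libraries on log2(level + 1), with Benjamini-Hochberg adjustment over 15456 genes and a call at an adjusted p under 0.05; folds are ratios of group means, and a log2 fold change on this scale understates changes of low genes.

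Each of the 26 epithelial genes tested was called higher in H211 controls, with a median log2 difference of 3.6, against 39.7% of genes called higher and a median of -0.0232 over the 15456 genes tested. This count is a description, since 15 of the 26 passed the filter only through H211 libraries, which favours a higher level in H211. OVOL1 was among these and passed through treated H211 libraries alone, with H211 controls at 0.281 to 0.385. The other 11 reached 1 in at least 3 H82 libraries. Of the 9 mesenchymal genes, 3 were called higher and 6 lower in H211, a median of -1.23, with 40.8% of genes called lower in all. Of the genes tested, 80.5% were called in either direction. No H211 control overlapped an H82 control for any of these 35 genes, where 40.4% of all genes were apart upwards and 41.3% downwards. Rescaling libraries to equal totals, with or without mitochondrial genes, moved the median of all genes from -0.0232 to 0.0934 and 0.144, and none of these 35 genes changed direction.

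**Figure D2:**
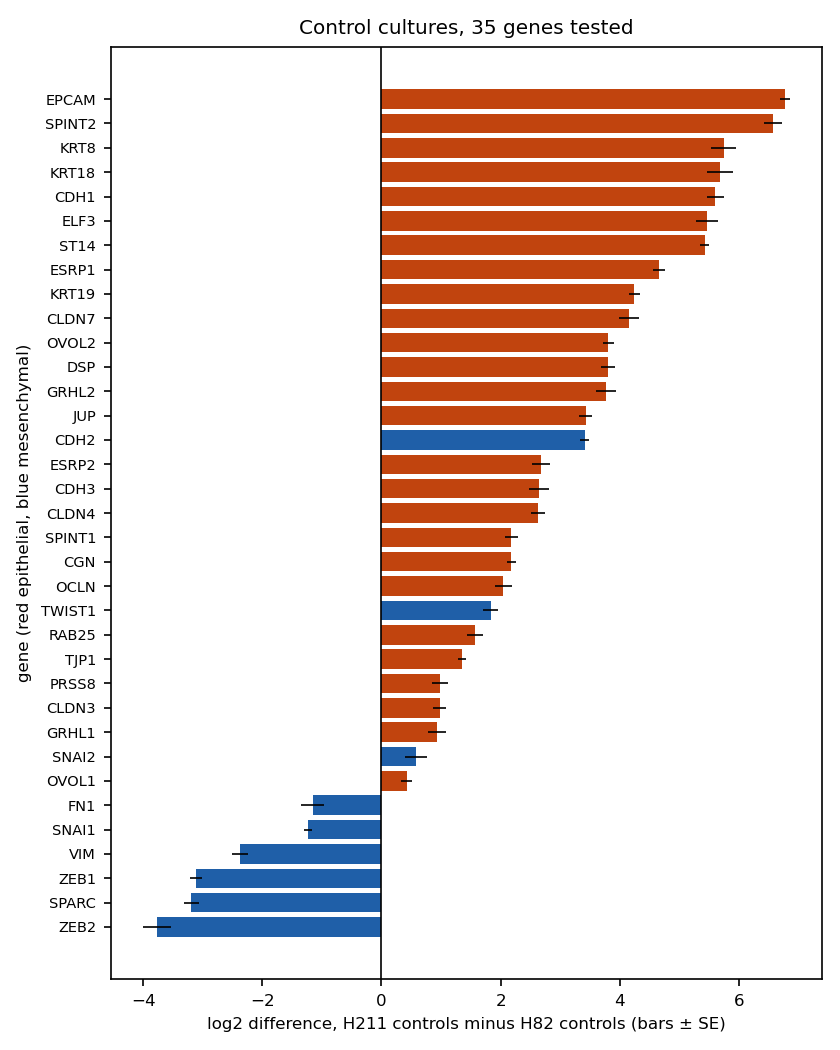
Log2 difference of H211 controls minus H82 controls (horizontal axis, bars with SE) for the 35 genes tested (vertical axis, red epithelial, blue mesenchymal). EPCAM is at 6.77 and ZEB2 at -3.77, and each red bar lies to the right of 0.

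With ORY-1001, more of the epithelial genes fell than rose in H211. VIM, the main mesenchymal intermediate filament, rose 7.56-fold and KRT19, an epithelial keratin, rose 3.48-fold. The junction genes CDH1, JUP and CLDN4, the transcription factor ELF3 and the splicing regulator ESRP1 fell by 1.40-fold to 1.93-fold, and EPCAM was not called. Of the 26 epithelial genes tested, 4 rose, 13 fell and 9 were not called, where 8.95% and 9.61% of all genes tested were called higher and lower, 18.6% in all. Their median log2 fold change was -0.466, beside -0.00212 over all genes tested. The counts include OVOL1, which passed the filter only through treated H211 libraries, and GRHL1, which passed only through H211 controls. Such a pass favours a rise of OVOL1 and a fall of GRHL1. Of the 9 mesenchymal genes, 6 rose, 1 fell and 2 were not called, with a median of 0.426. Treated and control libraries did not overlap for 4 epithelial genes upwards and 20 downwards, and for 7 mesenchymal genes upwards and 1 downwards; over all genes 17.0% were apart upwards and 18.4% downwards.

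These H211 counts depended on libraries and scaling. Without those 4 libraries, which leaves 1 H211 control assumed to vary like the other groups, 2 epithelial genes rose and 1 fell and 3 mesenchymal genes rose, while calls over all genes came down to 2.11% higher and 1.67% lower. There 6 of the 21 called genes still tested kept their call (CLDN3, CLDN4, KRT19, VIM, SPARC and ZEB1). Of the calls that ended, several had log2 changes close to those with all libraries, at -0.93 for ELF3, -0.73 for KRT18, -0.51 for JUP and -0.44 for ESRP1 (adjusted p = 0.188, 0.1, 0.193 and 0.156). OCLN, CDH2 and SNAI2 had smaller ones, at -0.16, -0.10 and 0.13 (adjusted p = 0.694, 0.708 and 0.704). Calls of all genes in H211 were 48.2% higher, and 35% or 32.6% higher after rescaling to equal totals with or without mitochondrial genes.

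In H82, SNAI1, a repressor of CDH1, rose 2.56-fold, and JUP, FN1, TWIST1 and CDH2 fell by 2.23-fold to 4.005-fold. Of the 26 epithelial genes tested, 3 rose (TJP1, CGN and CLDN3), 3 fell (KRT19, JUP and SPINT1) and 20 were not called, where 19.1% and 23.9% of all genes were called higher and lower, 43.0% in all, and 10 of the 26 were under 1 in every H82 library. Of the 9 mesenchymal genes, 2 rose (SNAI1 and VIM), 4 fell (CDH2, SPARC, FN1 and TWIST1) and 3 were not called. The medians were 0.0288 for the epithelial and -0.351 for the mesenchymal genes, beside -0.0158 over all genes. Libraries were apart upwards for 4 epithelial and 3 mesenchymal genes and downwards for 4 and 5, where 23.6% of all genes were apart upwards and 28.7% downwards.

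The response itself differed between the lines for 22 of the 35 genes, by the test of the difference of the effects (H211 minus H82), beside 32.1% of all genes tested. Among the epithelial genes 5 were called more positive in H211 and 10 more negative, beside 17.8% and 14.3% of all genes, with a median of -0.386. The 5 include OVOL1 and the 10 include GRHL1, whose direction in H211 was favoured by the filter. Among the mesenchymal genes 6 were more positive and 1, SNAI1, more negative, with a median of 0.78, beside 0.0132 over all genes. VIM differed by 2.37, KRT19 by 2.22, FN1 by 1.81 and TWIST1 by 1.78 on the log2 scale. CDH1, which fell in H211, was not called for this difference, at -0.57 (SE 0.20, adjusted p = 0.0522). It was called without H82 control replicate 1 or ORY-1001 replicate 1 (adjusted p = 0.0106 and 0.0292). Without the 4 libraries, the epithelial counts were 2 more positive and 2 more negative, and calls over all genes came down to 11.4% and 8.2%. The differences of ELF3, SPINT2 and CLDN7 were then -1.25, -0.79 and -0.72, close to those with all libraries but not called (adjusted p = 0.0747, 0.162 and 0.239).

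**Figure D3:**
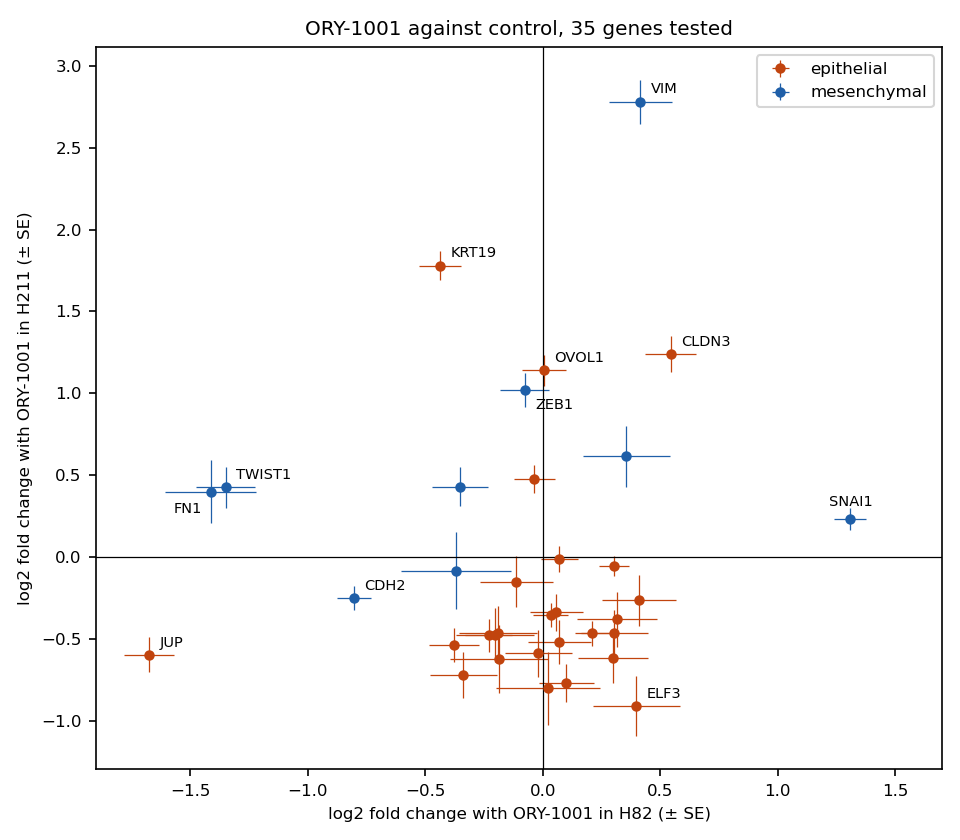
Log2 fold change with ORY-1001 in H82 (horizontal axis) against that in H211 (vertical axis) for the 35 genes tested, with SE bars (red epithelial, blue mesenchymal). VIM stands at 2.78 in H211, JUP at -1.68 in H82 and SNAI1 at 1.31 in H82, and most red points lie below 0 in H211.

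Among surface adhesion genes, EPCAM (chromosome 2, 47345158 to 47387601, all positions here in GENCODE release 29 on GRCh38) was not called with the drug in either line. It was at 676, 684 and 652 in H211 controls and 683, 646 and 666 with ORY-1001 (log2 change -0.013, SE 0.078, adjusted p = 0.94). In H82 it was at 5.89, 4.38 and 5.25 and then 5.83, 5.01 and 5.53 (log2 change 0.071, SE 0.078, adjusted p = 0.512). Treated and control libraries overlapped in each line. The H82 level was 0.771% of that in H211 controls. Of 1381 genes at 100 or more in H211 controls, 43 were under 2% of that level in H82 controls, the lowest above 0 being at 0.483%, and EPCAM, SPINT2, KRT18 and KRT8 were among these 43.

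CDH1, which encodes E-cadherin, the central protein of the epithelial adherens junction (chromosome 16, 68737225 to 68835548), fell in H211. Controls held it at 83.5, 81.7 and 74.0 and treated libraries at 54.4, 56.9 and 47.1, with no overlap, a 1.51-fold fall (log2 change -0.59, SE 0.14, adjusted p = 0.0154). In H82 it stayed low, at 1.05, 0.498 and 0.490 in controls and 0.417, 0.599 and 0.943 with ORY-1001 (log2 change -0.02, SE 0.14, adjusted p = 0.936). The fall in H211 missed the threshold when control replicate 1, control replicate 2 or ORY-1001 replicate 3 was left out (adjusted p = 0.0574, 0.0531 and 0.0609), without the 4 libraries (log2 change -0.40, adjusted p = 0.354), and at a pseudocount of 0.1 (adjusted p = 0.174). CDH3, P-cadherin, was at 6.87, 5.79 and 7.52 in H211 controls and 4.18, 5.18 and 4.32 with ORY-1001, which did not overlap but missed the threshold (log2 change -0.47, SE 0.17, adjusted p = 0.0706). Without H82 control replicate 1 it was called (adjusted p = 0.015). Its H82 levels lay between 0.0163 and 0.647.

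CDH2, N-cadherin, which mesenchymal and neural cells use in place of E-cadherin (chromosome 18, 27950966 to 28177446), was higher in H211, as were TWIST1 and SNAI2. It stood at 48.9, 47.0 and 42.0 in H211 controls and 39.4, 38.7 and 37.2 with ORY-1001, a 1.20-fold fall (log2 change -0.25, SE 0.074, adjusted p = 0.0368) that was lost without any of the H211 libraries but control replicate 3 (adjusted p = 0.0724 to 0.141), and without the 4 libraries (log2 change -0.10, adjusted p = 0.708). In H82 it was at 3.16, 3.38 and 3.71 and then 1.40, 1.56 and 1.63, a 2.23-fold fall with no overlap (log2 change -0.80, SE 0.074, adjusted p = 7.83e-06). CDH1 and CDH2 were thus both highest in H211 controls. CDH1 per CDH2 was 1.71 to 1.76 in H211 controls and 1.27 to 1.47 with ORY-1001, and 0.132 to 0.579 over the H82 libraries.

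Of the tight junction genes, claudins and occludin are the membrane strands and TJP1 and CGN the scaffold beneath them. CLDN3 (chromosome 7, 73768997 to 73770270) was the claudin that rose in both lines. In H211 it went from 1.41, 1.47 and 2.07 to 5.21, 5.12 and 5.36, 3.17-fold (log2 change 1.24, SE 0.11, adjusted p = 1.86e-05). In H82 it went from 0.287, 0.470 and 0.264 to 0.869, 0.939 and 1.05, 2.80-fold, at levels near 1 (log2 change 0.54, SE 0.11, adjusted p = 0.00204). CLDN4, which lies nearby (chromosome 7, 73799542 to 73832693), moved the other way in H211, from 5.46, 5.38 and 6.21 in controls to 2.91, 2.39 and 3.56 with ORY-1001, a 1.93-fold fall (log2 change -0.77, SE 0.12, adjusted p = 0.000939). In H82 CLDN4 lay between 0.0616 and 0.224.

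CLDN7 was the most abundant claudin of the set. It was at 44.0, 44.9 and 47.3 in H211 controls and 38.3, 32.4 and 33.5 with ORY-1001, and at 0.863, 2.22 and 1.95 and 2.54, 1.92 and 2.30 in H82; neither change was called. limma gave an adjusted p = 0.149 in H211 and 0.157 in H82. The H211 change was called with the H211 groups alone (adjusted p = 0.0139) or without H82 control replicate 1 (adjusted p = 0.0149), and the H82 change without H82 control replicate 2 (adjusted p = 0.0469). ELP5, whose exons lie over CLDN7 on the other strand, was at 79.2 to 301, and without a stated strand in the library their reads cannot be told apart. OCLN, occludin, was at 5.94, 5.76 and 4.02 in H211 controls and 3.34, 3.65 and 3.43 with ORY-1001 (log2 change -0.47, SE 0.14, adjusted p = 0.0403). Leaving out any H211 library but control replicate 3 ended that call, as did leaving out replicate 1 of the H82 controls or replicate 2 of the treated H82 libraries (adjusted p = 0.0505 to 0.141). Fitting the H211 groups alone ended it too (adjusted p = 0.0725). Without the 4 libraries the change was -0.16 (adjusted p = 0.694). In H82 OCLN was at 0.439, 0.716 and 0.367 and 0.671, 0.860 and 1.05 (adjusted p = 0.104, and 0.0498 without H211 control replicate 3).

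The scaffold genes parted from each other in H211. TJP1, which encodes ZO-1, was at 29.5, 32.3 and 29.9 in H211 controls and 29.7, 29.9 and 28.6 with ORY-1001, overlapping (log2 change -0.054, SE 0.063, adjusted p = 0.618). CGN, cingulin, fell 1.43-fold from 12.6, 12.7 and 11.9 to 8.76, 8.42 and 8.92 (log2 change -0.47, SE 0.075, adjusted p = 0.00149). In H82 both were a little higher with the drug. TJP1 rose 1.26-fold, from 11.1, 10.9 and 12.1 to 13.1, 14.9 and 14.9 (log2 change 0.30, SE 0.063, adjusted p = 0.00239). CGN rose 1.24-fold, from 2.20, 1.83 and 1.89 to 2.26, 2.55 and 2.498 (log2 change 0.21, SE 0.075, adjusted p = 0.041), a call that ended when replicate 2 or 3 of either H82 group or any H211 library but control replicate 3 was left out (adjusted p = 0.0503 to 0.129), and without the 4 libraries (adjusted p = 0.182). The CGN rise in H82 was also not called with the H82 groups alone (adjusted p = 0.136). TJP3 lay between 0.205 and 1.43 in H82 and 0 and 0.235 in H211.

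The desmosome genes were JUP and DSP. JUP (chromosome 17, 41754604 to 41786931), which encodes plakoglobin, the link between desmosomal cadherins and desmoplakin, fell in both lines. In H82 it went from 9.43, 12.6 and 10.7 to 3.00, 2.21 and 2.95, 4.005-fold lower (log2 change -1.68, SE 0.11, adjusted p = 5.99e-07). In H211 it went from 134, 123 and 122 to 80.3, 90.2 and 79.1, 1.52-fold lower (log2 change -0.60, SE 0.11, adjusted p = 0.00285). No treated library reached a control library of its line, and the fall was larger in H82 on the log2 scale, by 1.08 (SE 0.15, adjusted p = 0.00033). DSP, desmoplakin, was at 18.1, 20.0 and 15.3 in H211 controls and 13.2, 14.5 and 13.8 with ORY-1001 (log2 change -0.34, SE 0.11, adjusted p = 0.0597), and reached the threshold without H211 control replicate 3 (adjusted p = 0.0262). Its H82 levels lay between 0.216 and 0.493.

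Keratins form filaments from a type I and a type II chain, and KRT8 with KRT18 is the pair of simple epithelia. KRT19 (chromosome 17, 41523617 to 41528308), a type I keratin, was the epithelial gene with the largest log2 rise in H211 among those tested. It went from 49.1, 47.9 and 51.0 in controls to 174, 172 and 169 with ORY-1001 (log2 change 1.78, SE 0.088, adjusted p = 1.45e-07). In H82 it fell from 1.73, 1.94 and 1.32 to 1.02, 0.776 and 1.098 (log2 change -0.44, SE 0.088, adjusted p = 0.00197), close to a level of 1. The difference of the effects was 2.22 (SE 0.12, adjusted p = 5.01e-07).

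KRT8 and KRT18 did not follow KRT19 in H211. KRT18 (chromosome 12, 52948871 to 52952901) fell 1.75-fold, from 197, 198 and 188 to 112, 114 and 108 (log2 change -0.80, SE 0.22, adjusted p = 0.0288). KRT8 (chromosome 12, 52897187 to 52949954) was at 332, 332 and 327 in controls and 210.3, 217 and 217 with ORY-1001, a ratio of 1.54 that was not called (log2 change -0.62, SE 0.21, adjusted p = 0.0616). The fit shares 1 estimate of the spread per gene over both lines, and the H82 libraries of these genes spread widely on the log scale. KRT8 was at 5.09, 4.32 and 6.29 in H82 controls and 3.62, 3.13 and 7.41 with ORY-1001, and KRT18 at 3.35, 2.08 and 3.10 and 2.20, 1.95 and 5.10; H82 ORY-1001 replicate 3 was highest of its group for both. With the spread taken from the H211 libraries alone, the adjusted p was 4.84e-05 for KRT8 and 4.25e-05 for KRT18. The KRT18 call was lost without any single H211 library (adjusted p = 0.0574 to 0.0794), and the KRT8 change was called without H82 ORY-1001 replicate 2 or 3 (adjusted p = 0.0395 and 0.00147). KRT8 in H82, not called here (adjusted p = 0.52), was called lower without ORY-1001 replicate 3 (adjusted p = 0.00367) and without the 4 libraries (adjusted p = 0.0191).

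KRT8 per KRT18 stayed between 1.45 and 2.08 in the 12 libraries. KRT19 per KRT8 was 0.144 to 0.156 in H211 controls and 0.780 to 0.828 with ORY-1001, and 0.148 to 0.449 in H82. The KRT8 and KRT18 genes overlap at their ends on opposite strands, and 50 KRT8 pseudogenes summed to 2.55 to 6.54 per library, close to the H82 level of KRT8 itself, so the low H82 levels are uncertain. KRT7 lay between 0 and 0.341 in H82 and 0 and 0.230 in H211.

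**Figure D4:**
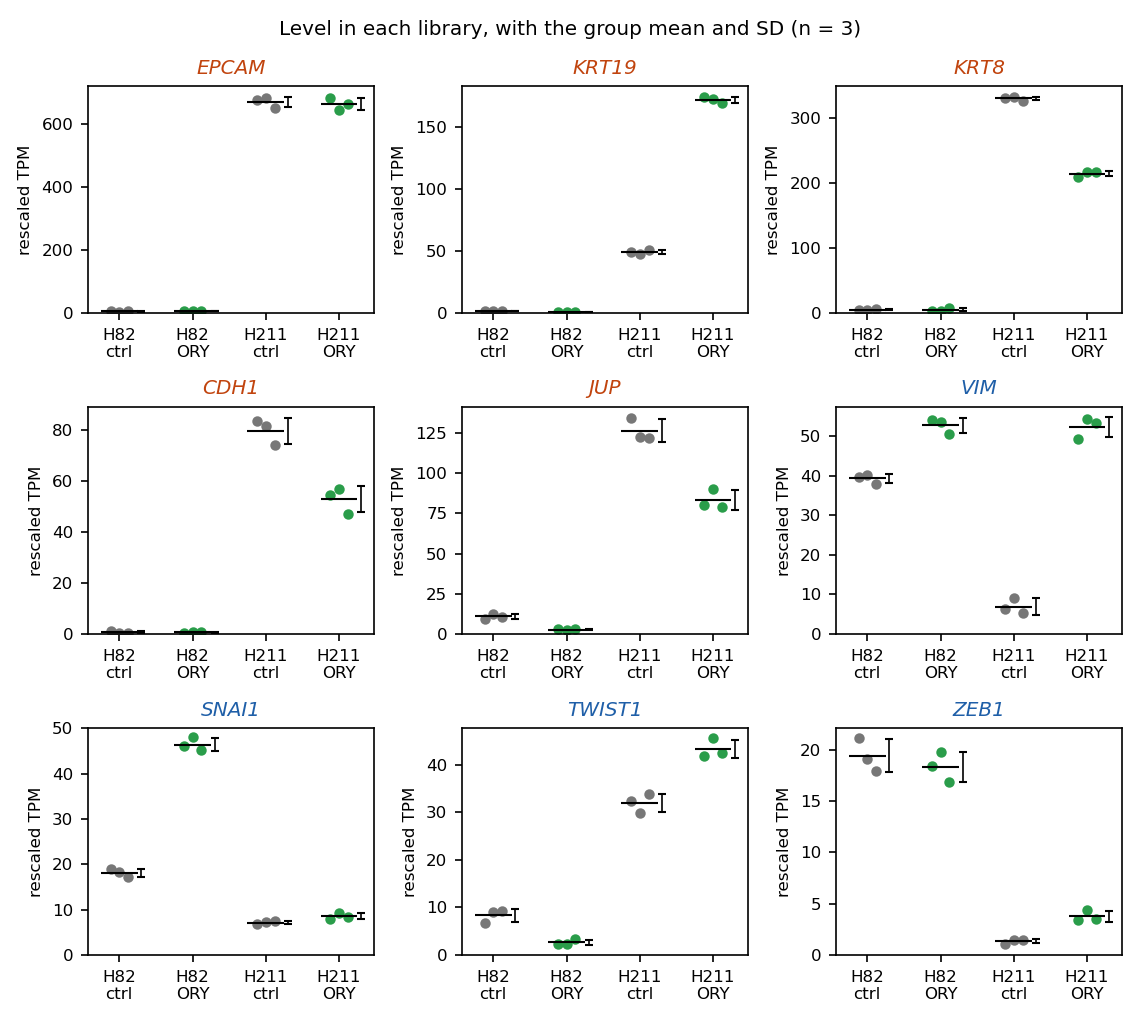
Rescaled TPM (vertical axes, from 0) of 9 genes in each library by group (horizontal axes, grey control, green ORY-1001), with the group mean as a line and the SD as a bar, n = 3. KRT19 and VIM stand at 169 to 174 and 49.3 to 54.1 in treated H211 libraries, above every H211 control, and JUP is lower with the drug in both lines.

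The 7 epithelial transcription and splicing factors were at 1.81 or lower in every H82 library, and limma called 0 of them there with the drug, 1 having an unadjusted p under 0.05. Of all genes tested, 43.0% were called in H82. In H211, 2 of these factors rose and 3 fell, beside 8.95% and 9.61% of all genes tested. Among them OVOL1 and GRHL1 passed the filter only through the H211 group where each was higher, which favours their direction. ELF3, an ETS factor of epithelia (chromosome 1, 202007945 to 202017188), fell 1.90-fold, from 85.9, 77.7 and 86.6 to 43.8, 45.9 and 42.1 (log2 change -0.91, SE 0.18, adjusted p = 0.00609). In H82 ELF3 was at 0.561, 0.645 and 1.69 and 1.04, 1.76 and 1.81, overlapping (log2 change 0.40, SE 0.18, adjusted p = 0.106), and reached the threshold without H82 control replicate 3 or ORY-1001 replicate 1 (adjusted p = 0.00264 and 0.0427). OVOL2, a zinc finger repressor of ZEB1, rose 1.42-fold, from 15.9, 16.0 and 16.3 to 23.5, 21.8 and 23.0 (log2 change 0.48, SE 0.086, adjusted p = 0.00292). Its relative OVOL1 rose from 0.281, 0.353 and 0.385 to 1.80, 2.29 and 1.80, and was at 0 in 5 of the 6 H82 libraries. At a pseudocount of 0.1 the H211 changes of OVOL2 and ELF3 were not called (adjusted p = 0.203 and 0.0724). The OVOL2 level is uncertain because exons of SNX5, at 94.1 to 153, overlap it on the same strand.

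ESRP1, which directs epithelial splicing, fell 1.41-fold, from 47.4, 50.5 and 47.1 to 34.0, 34.9 and 34.4 (log2 change -0.48, SE 0.10, adjusted p = 0.00732). This H211 call ended at a pseudocount of 0.1 (adjusted p = 0.122). ESRP2 was at 9.56, 9.72 and 10.1 in H211 controls and 8.05, 9.18 and 9.02 with ORY-1001 (log2 change -0.15, SE 0.15, adjusted p = 0.557). The H82 libraries held ESRP1 at 0.991, 1.01 and 0.880 and then 0.422, 0.667 and 0.971, and ESRP2 at 0.451, 0.489 and 1.24 and then 0.489, 0.445 and 0.781. NFATC3 overlaps ESRP2 on the other strand and reached 15.5, and their reads cannot be told apart there. ESRP1 in H82 reached the threshold without ORY-1001 replicate 3 (adjusted p = 0.00688) and without the 4 libraries (adjusted p = 0.0372). GRHL2, a grainyhead factor that maintains CDH1 and claudin expression, was at 17.9, 16.6 and 15.0 in H211 controls and 11.2, 11.8 and 11.9 with ORY-1001, with no overlap and no call (log2 change -0.47, SE 0.17, adjusted p = 0.0765). The same change was called without H82 control replicate 3 (adjusted p = 0.00452), whose GRHL2 level of 0.792 stood above the other H82 libraries, at 0.0701 to 0.160. GRHL1 fell from 1.80, 2.13 and 1.18 to 0.837, 0.860 and 0.545 (log2 change -0.62, SE 0.15, adjusted p = 0.014), a call lost without H211 ORY-1001 replicate 3 (adjusted p = 0.0548).

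Of the membrane proteases, their inhibitors and RAB25, 4 of 5 were called lower in H211, beside 9.61% of all genes tested. ST14, which encodes the protease matriptase, fell 1.28-fold, from 64.4, 62.0 and 62.4 to 49.3, 46.9 and 50.9 (log2 change -0.35, SE 0.075, adjusted p = 0.0072). SPINT1, its inhibitor HAI-1, fell 1.47-fold, from 46.5, 43.9 and 40.7 to 30.0, 31.2 and 27.98 (log2 change -0.54, SE 0.10, adjusted p = 0.00491). PRSS8, prostasin, fell from 2.51, 2.08 and 2.35 to 0.764, 0.915 and 1.40 (log2 change -0.72, SE 0.14, adjusted p = 0.00486). RAB25, a small GTPase of epithelial recycling endosomes, fell from 2.98, 3.02 and 2.59 to 1.72, 1.38 and 2.01 (log2 change -0.52, SE 0.13, adjusted p = 0.0203), a call that ended when replicate 1 or 2 of either H211 group was left out (adjusted p = 0.053 to 0.0731). At a pseudocount of 0.1 the falls of ST14 and RAB25 were not called (adjusted p = 0.126 and 0.201). SPINT2, the inhibitor HAI-2 and the second most abundant epithelial gene of the set after EPCAM, was at 464, 453 and 472 in H211 controls and 391, 361 and 405 with ORY-1001 (log2 change -0.26, SE 0.16, adjusted p = 0.281; with the H211 groups alone adjusted p = 0.0136).

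In H82 only SPINT1 of these 5 was called, beside 43.0% of all genes tested. It fell 1.33-fold, from 8.32, 9.51 and 8.74 to 5.35, 7.79 and 6.79 (log2 change -0.38, SE 0.10, adjusted p = 0.0131), and the call was lost without H82 control replicate 2 (adjusted p = 0.0503) or the 4 libraries (adjusted p = 0.0538). The SPINT1 fall was also not called with the H82 groups alone (adjusted p = 0.0594). SPINT2 was at 3.79, 3.38 and 4.55 in H82 controls and 4.13, 7.78 and 5.06 with ORY-1001 (adjusted p = 0.0539), and was called without H82 control replicate 3 or ORY-1001 replicate 1 (adjusted p = 0.0407 and 0.00773). ST14 lay between 0.352 and 0.600, PRSS8 between 0.193 and 0.898, and RAB25 between 0.138 and 0.484 in H82. PRSS8 in H82 was called lower when replicate 2 of the treated H82 or replicate 3 of the treated H211 libraries was left out (adjusted p = 0.0486 and 0.0485). SPINT1-AS1, on the strand opposite SPINT1, was at 0.324 to 12.5 and cannot be told apart from it where they overlap.

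Among the mesenchymal structural genes, VIM (chromosome 10, 17228259 to 17237593) rose in both lines, and the treated means were 52.2 ± 2.57 in H211 and 52.7 ± 1.89 in H82. H211 went from 6.27, 9.21 and 5.25 in controls to 49.3, 54.1 and 53.2 with ORY-1001 (log2 change 2.78, SE 0.13, adjusted p = 1.21e-07). H82 went from 39.6, 40.3 and 37.9 to 54.0, 53.5 and 50.5, a 1.34-fold rise (log2 change 0.41, SE 0.13, adjusted p = 0.0273). The H211 control with the highest VIM, replicate 2, was also the one with the highest blood marker sum. The H211 rise was called under each alternative run, including that without the 4 libraries. The H82 call was lost without any H82 library but ORY-1001 replicate 3 (adjusted p = 0.0528 to 0.0754).

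FN1, the matrix protein fibronectin, and SPARC, a matrix-binding secreted protein, fell in H82 and did not fall in H211. FN1 (chromosome 2, 215360440 to 215436172) fell 3.58-fold in H82, from 6.54, 4.91 and 5.98 to 0.830, 1.68 and 2.36 (log2 change -1.41, SE 0.19, adjusted p = 0.000141). In H211 it was at 1.63, 2.26 and 2.30 in controls and 2.82, 3.29 and 2.95 with ORY-1001, apart but not called (log2 change 0.40, SE 0.19, adjusted p = 0.185), and the difference between the lines was 1.81 (SE 0.27, adjusted p = 0.000515). SPARC (chromosome 5, 151661096 to 151687165) fell 1.28-fold in H82, from 88.0, 94.1 and 98.5 to 73.7, 66.9 and 79.0 (log2 change -0.35, SE 0.12, adjusted p = 0.0333), and rose 1.37-fold in H211, from 10.8, 10.1 and 7.43 to 11.5, 14.2 and 13.2 (log2 change 0.43, SE 0.12, adjusted p = 0.0282). The H82 call of SPARC was lost without control replicate 2 or 3 or ORY-1001 replicate 1 or 2 (adjusted p = 0.0686 to 0.115), and the H211 call without control replicate 3 or ORY-1001 replicate 2 or 3 (adjusted p = 0.0624 to 0.0935). With the H211 groups alone the H211 rise of SPARC was not called (adjusted p = 0.0904). The difference between the lines was called, at 0.78 (SE 0.17, adjusted p = 0.00468).

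The ZEB factors, zinc finger repressors of CDH1 and of the miR-200 genes, were both higher in H82 controls. ZEB1 (chromosome 10, 31318495 to 31529814) was at 21.1, 19.2 and 18.0 in H82 controls and 18.4, 19.8 and 16.9 with ORY-1001, overlapping (log2 change -0.077, SE 0.10, adjusted p = 0.605). In H211 it rose 2.79-fold, from 1.12, 1.46 and 1.49 to 3.42, 4.404 and 3.53 (log2 change 1.02, SE 0.10, adjusted p = 5.7e-05), still below every H82 library. ZEB2 (chromosome 2, 144364364 to 144524583) was at 17.4, 20.0 and 17.9 in H82 controls and 10.6, 15.8 and 16.4 with ORY-1001, apart but not called (log2 change -0.37, SE 0.23, adjusted p = 0.237). In H211 ZEB2 was at 0.278, 1.11 and 0.0689 and 0.140, 0.558 and 0.367, overlapping (log2 change -0.082, SE 0.23, adjusted p = 0.857), and the highest of these lay in control replicate 2, the library with the highest blood marker sum. ZEB1-AS1, whose exons overlap ZEB1 on the other strand, was at 5.67 to 14.1, above every H211 level of ZEB1. Their reads cannot be told apart where they overlap, so the low H211 levels of ZEB1 are uncertain.

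SNAI1 (chromosome 20, 49982999 to 49988886) rose in H82 from 18.9, 18.4 and 17.2 to 46.0, 48.0 and 45.2 (log2 change 1.31, SE 0.067, adjusted p = 1.24e-07). In H211 it was at 6.73, 7.20 and 7.49 and then 7.98, 9.38 and 8.39, a 1.20-fold rise (log2 change 0.23, SE 0.067, adjusted p = 0.0317) that missed the threshold when replicate 1 or 2 of the controls or replicate 2 or 3 of the treated libraries was left out (adjusted p = 0.0596 to 0.112). The H211 rise was also not called with the H211 groups alone (adjusted p = 0.128). The test of the difference put the H82 effect above the H211 effect, at -1.07 (SE 0.094, adjusted p = 1.43e-05). SNAI2, also known as SLUG, stayed low: 0.163, 0.337 and 0.219 in H82 controls and 0.661, 0.697 and 0.407 with ORY-1001, 0.402, 0.728 and 1.57 in H211 controls and 1.95, 1.68 and 1.83 with ORY-1001. It was called higher with the drug in H211 (log2 change 0.62, SE 0.18, adjusted p = 0.0393), but not in 8 of the 12 fits that left out a library (adjusted p up to 0.134, without H211 control replicate 1). These 8 left out replicate 2 or 3 of the H82 controls, replicate 2 of the treated H82 libraries, replicate 1 or 2 of the H211 controls, or any treated H211 library. Nor was SNAI2 called in H211 with the H211 groups alone (adjusted p = 0.103), while it was in H82 with the H82 groups alone (adjusted p = 0.0357). Without the 4 libraries the H211 change was 0.13 (adjusted p = 0.704). Without H211 control replicate 3, SNAI2 was called higher in H82 too (adjusted p = 0.0336), as it was in H82 without the 4 libraries (adjusted p = 0.0205).

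TWIST1 (chromosome 7, 19020991 to 19117672), a bHLH factor of mesenchyme, took opposite directions in the 2 lines. In H82 it fell 3.13-fold, from 6.69, 9.12 and 9.20 to 2.28, 2.39 and 3.31 (log2 change -1.35, SE 0.12, adjusted p = 7.75e-06). In H211 it rose 1.35-fold, from 32.3, 29.9 and 33.8 to 41.9, 45.6 and 42.5 (log2 change 0.43, SE 0.12, adjusted p = 0.0342), a call lost without any single H211 library (adjusted p = 0.0502 to 0.112). The difference of the effects was 1.78 (SE 0.17, adjusted p = 3.2e-05). TWIST2, the relative of TWIST1, lay between 0 and 0.0469 in H82 and 0 and 0.0854 in H211.

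The 2 sets were then set side by side within each library as the mean of log2(level + 1), over the 28 epithelial and the 10 mesenchymal genes. H211 controls had an epithelial mean of 4.34 to 4.395 and a mesenchymal mean of 2.34 to 2.53. With ORY-1001 these were 4.15 to 4.16 and 2.91 to 3.06, so that neither range met that of the controls. H82 controls had 1.12 to 1.23 and 3.30 to 3.34, and H82 with ORY-1001 1.08 to 1.29 and 3.00 to 3.16, where the epithelial ranges overlapped and the mesenchymal ranges did not. The epithelial minus the mesenchymal mean lay nearer to 0 with the drug in both lines: 1.85 to 2.05 in H211 controls against 1.098 to 1.24 with the drug, and -2.22 to -2.10 in H82 controls against -1.97 to -1.88. These means describe the libraries, were not tested, and do not mean that the genes of a set moved together. In H211 the log2 change was 2.78 for VIM and -0.25 to 1.02 for the other mesenchymal genes tested. In H82, SNAI1 and VIM rose while CDH2, SPARC, FN1 and TWIST1 fell.

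**Figure D5:**
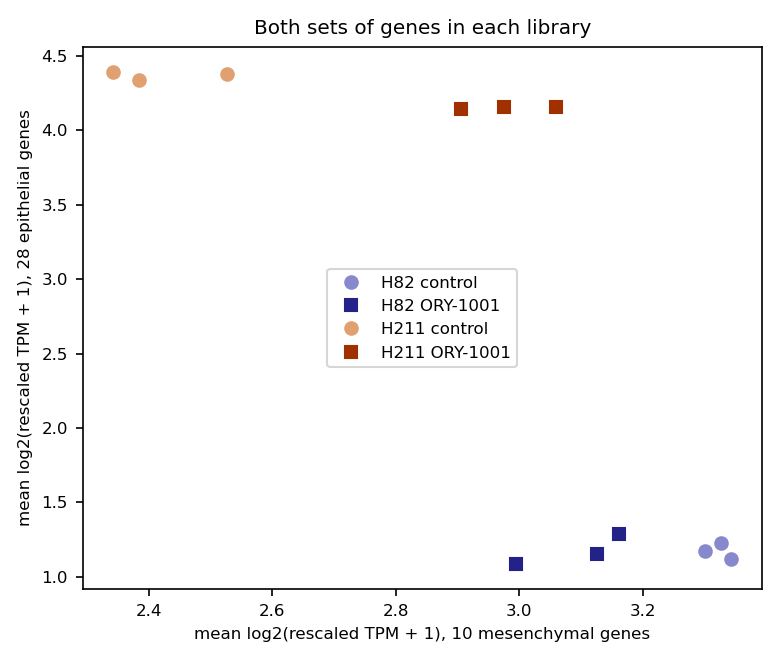
Mean log2(rescaled TPM + 1) of the 28 epithelial genes (vertical axis) against that of the 10 mesenchymal genes (horizontal axis) in each of the 12 libraries, 1 point a library. Treated H211 libraries lie at 2.91 to 3.06 on the mesenchymal axis, to the right of the H211 controls at 2.34 to 2.53, and treated H82 libraries lie left of the H82 controls.

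The miR-200 family is shown because its targets ZEB1 and ZEB2 differ between the lines; no microRNA level was measured here. The mature sequences, from RefSeq on GRCh38.p14, are given 5′ to 3′ with the seed, bases 2 to 8, in capitals. They fall into a pair of seed groups that differ at 1 letter.
hsa-miR-200b-3p: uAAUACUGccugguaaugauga
hsa-miR-429: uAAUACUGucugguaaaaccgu
hsa-miR-200c-3p: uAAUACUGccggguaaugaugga
hsa-miR-200a-3p: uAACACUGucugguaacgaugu
hsa-miR-141-3p: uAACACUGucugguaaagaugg
The first 3 share the seed AAUACUG and the other two the seed AACACUG. The genes of miR-200c and miR-141 lie in MIR200CHG, a host transcript on chromosome 12 (6963246 to 6964447), which was chosen after its values were seen. MIR200CHG was at 4.48, 3.31 and 4.89 in H211 controls and 4.06, 4.63 and 5.52 with ORY-1001, and at 0 in 5 H82 libraries and 0.303 in H82 ORY-1001 replicate 3. It was not called with the drug in H211 or H82 (adjusted p = 0.578 and 0.541).

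Promoters were read for CACCTG on either strand (CAGGTG on the other), the E-box that ZEB and SNAI factors bind, in the 250 bases before each RefSeq start on GRCh38.p14. The table matched 14 epithelial genes with 22 windows and 7 mesenchymal genes with 14 windows. The motif was in 10 of the 22 epithelial windows (45.5%), in 2 of the 14 mesenchymal windows (14.3%) and in 6143 of all 35116 windows (17.5%). AACCGGTT, a motif of GRHL factors, was in 0 windows of either set and in 0.117% of all windows. Windows of 1 gene can overlap, and a match of letters is not a binding site. Windows of RAB25, which fell in H211 and has 1 match, and of CLDN3 and VIM, which rose there and have 0, and of CGN, which fell there and has 0, are printed 5′ to 3′ in the direction of the gene with matches in capitals. They hold no exon of GENCODE release 29.
RAB25, chr1:156060910-156061159, plus strand: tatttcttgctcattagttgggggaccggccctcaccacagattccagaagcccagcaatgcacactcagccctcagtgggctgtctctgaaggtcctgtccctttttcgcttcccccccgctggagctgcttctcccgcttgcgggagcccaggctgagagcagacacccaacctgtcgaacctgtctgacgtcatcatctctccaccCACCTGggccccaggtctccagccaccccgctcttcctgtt
CLDN3, chr7:73770271-73770520, minus strand: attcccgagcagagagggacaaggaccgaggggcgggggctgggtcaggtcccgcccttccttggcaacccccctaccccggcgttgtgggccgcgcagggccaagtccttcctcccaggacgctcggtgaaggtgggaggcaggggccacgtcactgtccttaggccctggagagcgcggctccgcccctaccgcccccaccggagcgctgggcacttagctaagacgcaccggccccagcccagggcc
VIM, chr10:17227991-17228240, plus strand: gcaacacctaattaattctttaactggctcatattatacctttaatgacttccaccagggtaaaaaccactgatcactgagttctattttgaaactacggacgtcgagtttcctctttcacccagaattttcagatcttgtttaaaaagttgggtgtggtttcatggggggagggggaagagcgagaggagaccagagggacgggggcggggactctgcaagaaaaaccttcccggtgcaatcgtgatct
CGN, chr1:151511137-151511386, plus strand: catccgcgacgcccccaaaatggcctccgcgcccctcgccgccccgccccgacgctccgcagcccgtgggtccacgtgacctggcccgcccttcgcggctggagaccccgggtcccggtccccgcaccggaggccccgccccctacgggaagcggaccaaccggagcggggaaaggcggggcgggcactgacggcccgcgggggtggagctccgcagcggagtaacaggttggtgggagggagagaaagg
The RAB25 match starts 41 bases before the start site. Matches were also counted in windows of CLDN7 (4), DSP (2), JUP (2), ELF3, OCLN, SPINT1, TJP1 and TJP3 among the epithelial genes and of ZEB1 among the mesenchymal ones. A link of matches with direction in H211 was not tested. With a match in at least 1 window, JUP, ELF3, OCLN, RAB25 and SPINT1 fell. ZEB1, with matches in 2 windows, rose there, and CLDN7, DSP and TJP1 were not called. With 0 matches, CGN, CLDN4, GRHL1 and CDH2 fell and CLDN3, VIM and SPARC rose. KRT8, FN1 and ZEB2, also with 0, were not called.

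Other genes of the same structures, none of them among the 38, were taken from lists. Their counts are to be read beside the 18.6% of all genes called in H211 and the 43.0% called in H82. Of 15 other tight junction and polarity genes tested, 1 rose and 7 fell in H211 and 1 rose and 3 fell in H82. CLDN12 fell from 32.1 ± 1.501 to 23.4 ± 0.997 in H211 (log2 change -0.44, SE 0.077, adjusted p = 0.00246), and CRB3, an apical polarity protein, from 14.1 ± 1.37 to 9.64 ± 1.29 (log2 change -0.51, SE 0.11, adjusted p = 0.00977). In H82 LLGL2, a basolateral polarity protein, fell from 10.6 ± 1.66 to 7.08 ± 0.809 (log2 change -0.52, SE 0.11, adjusted p = 0.00271), while CLDN15 rose from 3.04 ± 0.286 to 4.55 ± 0.539 (log2 change 0.46, SE 0.14, adjusted p = 0.02). Of 15 other adherens junction and desmosome genes, 5 fell in H211 and 1 rose and 6 fell in H82; the H82 share is near that of all genes. DSG2, a desmosomal cadherin, fell 1.35-fold in H211 and 1.27-fold in H82 (adjusted p = 0.000279 and 0.000448), and DSC2 fell 1.44-fold in H211 (adjusted p = 0.00421). AFDN, which links nectins to actin, fell 1.98-fold in H82 (adjusted p = 1.4e-06), as did the nectin gene NECTIN2, from 111 ± 3.02 to 48.3 ± 1.74 (log2 change -1.19, SE 0.13, adjusted p = 3.06e-05).

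Only 3 of 16 other keratins were tested. KRT17 rose in H211 from 1.60 ± 0.245 to 6.11 ± 0.402 (log2 change 1.46, SE 0.12, adjusted p = 1.42e-05) and KRT20, a keratin of gut and Merkel cells, fell from 4.47 ± 0.470 to 1.26 ± 0.278 (log2 change -1.28, SE 0.11, adjusted p = 1.72e-05). KRT10 rose in both lines, 1.56-fold in H82 and 1.19-fold in H211 (adjusted p = 3.15e-05 and 0.0292). Of 11 other epithelial surface, protease and factor genes, 1 rose and 3 fell in H211 and 1 fell in H82. AP1M2, an epithelial clathrin adaptor subunit, fell 1.91-fold in H211 (adjusted p = 0.00723), ERBB3 fell 1.51-fold there (adjusted p = 0.0299) and KLF5 fell 1.46-fold in H82 (adjusted p = 0.0215).

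Of 17 other mesenchymal and matrix genes tested, 2 rose and 2 fell in H211 and 2 rose and 4 fell in H82, a share near that of all genes in H211 and under it in H82. DCN, the matrix proteoglycan decorin, rose in H211 from 4.10 ± 0.282 to 63.9 ± 3.63 (log2 change 3.67, SE 0.21, adjusted p = 6.08e-07), a larger fold than that of VIM. TCF4, an E protein that can pair with TWIST1, rose 1.39-fold there (adjusted p = 0.000567). In H82 COL5A1, a fibrillar collagen chain, fell from 2.76 ± 1.11 to 0.418 ± 0.201 (log2 change -1.38, SE 0.19, adjusted p = 0.000132) and LOX, a collagen crosslinking enzyme, rose from 8.10 ± 0.824 to 12.7 ± 0.328 (log2 change 0.60, SE 0.093, adjusted p = 0.000343). In the control cultures 12 of the 15 tight junction genes, 8 of the 15 adherens junction and desmosome genes, 3 of the 3 keratins, 9 of the 11 epithelial surface genes and 7 of the 17 mesenchymal genes were higher in H211, and 1, 5, 0, 2 and 6 were lower, beside 39.7% of all genes higher and 40.8% lower. Of these genes 5, 5, 2, 5 and 4 passed the filter only through H211 libraries. Only through H82 libraries passed 1, 0, 0, 0 and 4. Such a pass favours a difference in the matching direction.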

How the data were processed

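Per the labels' protocols, poly(A) RNA was captured on oligo(dT) beads and made into NEBNext Ultra II RNA libraries, which were sequenced as read pairs on an Illumina HiSeq with bcl2fastq 2.17 for the index split. Whether strand was used is not stated in these protocols. The submitters' processing notes list hg38 and, with no roles, Salmon 1.1.0, sleuth 0.30.0, STAR 2.5.2b, Subread 1.5.2 with featureCounts, DESeq2, Trimmomatic 0.36 and R 4.0.4. The deposited values are a signal, TPM that the authors appear to have rescaled between libraries: no source describes that step, and column totals run from 967415 to 1111988. The tests had been planned for plain TPM and were applied unchanged.

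Genes at 1 or more in at least 3 of the 12 libraries (15456) were fitted as log2(level + 1) with limma 3.58.1 in R 4.3.3, 1 linear model of 4 group means with eBayes and a trend, two-sided, Benjamini-Hochberg adjusted over all genes. Contrasts were ORY-1001 against control in each line, their difference, and the controls of the lines. The fit was tested on simulated data. SPARC was placed with the mesenchymal genes. The members and lists were chosen with earlier results of these data known. Values in every library were given for EPCAM, KRT19, CDH1, CDH2, VIM, ZEB1, ZEB2, SNAI2 and members called with a fold of at least 1.5 and a mean of at least 5; up to 2 members with the smallest p were named per outside list and comparison. The 38 symbols matched GENCODE release 29, which need not be the authors' annotation. Alternatives changed the pseudocount, filter, scaling, groups fitted and libraries kept; a replicate block was also fitted. Totals without mitochondrial genes and the fit without 4 libraries were chosen after seeing the data.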

Additional observations from a re-analysis of the deposited data

Results flagged for a closer look

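For 22 of the 35 genes tested the effect of ORY-1001 differed between the lines, by limma's test of the difference of the effects (H211 minus H82, log2, adjusted p under 0.05); 32.1% of all genes tested were called. The largest differences upwards were VIM at 2.37 (SE 0.19, adjusted p = 7.5e-06), KRT19 at 2.22 (SE 0.12, adjusted p = 5.01e-07), FN1 at 1.81 (SE 0.27, adjusted p = 0.000515) and TWIST1 at 1.78 (SE 0.17, adjusted p = 3.2e-05). OVOL1 was at 1.14 (SE 0.13, adjusted p = 9.96e-05), ZEB1 at 1.096 (SE 0.15, adjusted p = 0.000246) and JUP, which fell in both lines and fell further in H82, at 1.08 (SE 0.15, adjusted p = 0.00033). SPARC was at 0.78 (SE 0.17, adjusted p = 0.00468), CLDN3 at 0.70 (SE 0.16, adjusted p = 0.00581), CDH2 at 0.55 (SE 0.10, adjusted p = 0.00217) and OVOL2 at 0.51 (SE 0.12, adjusted p = 0.00785). CLDN3 rose by similar folds of means, 2.80-fold in H82 and 3.17-fold in H211, and its H82 levels lay near 1 or lower. At a pseudocount of 0.1 the calls of CLDN3 and OVOL2 ended (adjusted p = 0.441 and 0.176).

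Downwards, the epithelial factor ELF3 was at -1.31 (SE 0.26, adjusted p = 0.00308) and the CDH1 repressor SNAI1 at -1.07 (SE 0.094, adjusted p = 1.43e-05). GRHL1 was at -0.92 (SE 0.21, adjusted p = 0.00645), CLDN4 at -0.87 (SE 0.16, adjusted p = 0.00218), OCLN at -0.77 (SE 0.20, adjusted p = 0.0123) and CLDN7 at -0.70 (SE 0.24, adjusted p = 0.0444). CGN was at -0.68 (SE 0.11, adjusted p = 0.000683), SPINT2 at -0.67 (SE 0.22, adjusted p = 0.0372), RAB25 at -0.59 (SE 0.19, adjusted p = 0.034), ST14 at -0.39 (SE 0.11, adjusted p = 0.0158) and TJP1 at -0.36 (SE 0.089, adjusted p = 0.0103). At a pseudocount of 0.1 the calls of ST14, RAB25 and CLDN7 ended (adjusted p = 0.128, 0.193 and 0.096). The calls of CLDN7, RAB25 and SPINT2 each ended in 7 of the 12 fits that left out 1 library. For CLDN7 these were H82 ORY-1001 replicates 1 and 3 and all H211 libraries but ORY-1001 replicate 1 (adjusted p = 0.0683 to 0.0919). For RAB25 they were H82 control replicate 2, H82 ORY-1001 replicates 1 and 3, and replicates 1 and 2 of both H211 groups (adjusted p = 0.0578 to 0.0786). For SPINT2 they were H82 control replicates 1 and 2 and all H211 libraries but ORY-1001 replicate 3 (adjusted p = 0.0593 to 0.0828). DSP, ESRP1, GRHL2 and KRT18, not called for the difference with all libraries, were called without H211 control replicate 3 (DSP, adjusted p = 0.0341), H82 ORY-1001 replicate 1 (ESRP1, adjusted p = 0.0309), H82 control replicate 3 (GRHL2, adjusted p = 0.0134) or any treated H82 library (KRT18, adjusted p = 0.0274 to 0.0498). FN1, TWIST1, SPARC, KRT19, CGN and GRHL1 had treated and control libraries apart in both lines and in opposite directions. GRHL1, OVOL1, OVOL2, CLDN4, RAB25 and ST14 were under 1 in every H82 library, so their H82 effect rests on trace levels. GRHL1 and OVOL1 also passed the filter only through the H211 group where each was higher.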

How the results depend on the processing

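No result changed direction past the threshold under the alternatives run. In H211 the 13 epithelial genes that fell became 6 at a pseudocount of 0.1, and the 4 that rose and 13 that fell became 2 and 1 without the 4 libraries named in the report. The 6 mesenchymal genes that rose there became 3 with no filter, with equal totals, with the groups alone, without mitochondrial genes and without the 4 libraries. The 1 that fell, CDH2, became 0 at a pseudocount of 0.1, with no filter, with the replicate block and without the 4 libraries. In H82 the 2 mesenchymal genes that rose became 1 with no filter. For the difference between the lines, the 5 epithelial genes more positive became 3 at a pseudocount of 0.1 and 2 without the 4 libraries, and the 10 more negative became 17 at a pseudocount of 5 and 2 without the 4 libraries. Dropping each library in turn gave, for epithelial genes, 2 to 5 up and 2 to 5 down in H82 (5 up without H82 ORY-1001 replicate 1 and 5 down without replicate 3), 3 to 4 up and 8 to 14 down in H211 (8 without H211 control replicate 1 or 2), and 4 to 5 more positive and 6 to 11 more negative in the difference. For mesenchymal genes it gave 1 to 3 up and 3 to 4 down in H82 and 2 to 6 up and 0 to 1 down in H211, with 2 up without H211 ORY-1001 replicate 2 or 3 and 3 without control replicate 1 or 2. With the groups of each comparison alone, 6 of 105 gene results lost their call and 6 gained one. The cause of these changes was not tested. In H82, 8 of the 12 called genes kept their call in each alternative that tested them, leaving aside those chosen after seeing the data (CLDN3, TJP1, JUP, KRT19, FN1, CDH2, SNAI1, TWIST1), and in H211 10 of 24 did (CLDN3, CLDN4, CGN, JUP, KRT19, OVOL1, PRSS8, SPINT1, VIM, ZEB1).

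Replicate numbers are shared between groups. Within each line, control and treated libraries of the same number did not deviate together (r = -0.0805 to 0.0449). Libraries of the same number were not compared between the lines, and what a shared number stands for is not known. With the replicate block, 8 of the 140 gene results lost their call and 1 gained one. Depth is unknown, so levels under about 1, as of most epithelial genes in H82, carry no known counting error.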

Other observations

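In H82 with ORY-1001, replicate 3 held the highest level of its group for 16 of the 28 epithelial and 6 of the 10 mesenchymal genes; the other two libraries held 6 each and 1 and 3. It is also the H82 library with the highest blood marker sum, at 142.8. KRT8 was at 7.41 there against 3.62 and 3.13, KRT18 at 5.10 against 2.20 and 1.95, and TJP3 at 1.43 against 0.477 and 0.918. VIM per KRT19 was 0.103 to 0.192 in H211 controls and 0.283 to 0.314 with ORY-1001, and 20.7 to 28.7 in H82 controls and 46.0 to 68.9 with ORY-1001.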
